A study of Homo sapiens with 8 samples.

Results

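The A20, TNIP, cIAP and CFLAR genes are checkpoints on the pathway below the tumour necrosis factor (TNF) receptor, and 10 of them were followed here: TNFAIP3, TNIP1, TNIP2, CYLD, BIRC2, BIRC3, RIPK1, CFLAR, TNFAIP2 and TNFAIP8. They were chosen by name, with earlier results of these data known. Each was found as exactly 1 locus carrying that single name, so that 10 of the 29004 loci of the expression table were taken. The 8 samples came from 1 stable line of AB8/13 cells, an immortalized human podocyte line (podocytes are the epithelial cells of the kidney filter), which carried a lentiviral, doxycycline-inducible LATS2 construct. In 4 samples, named LATS2 OE, expression of the kinase LATS2 was switched on by doxycycline (125 ng/mL, 8 h); the other 4, named Untreated, carried the same construct without the drug. All cells were grown at 33 °C to 70% confluence, and poly(A) RNA was sequenced without strand information. Since doxycycline went with LATS2 OE alone, an effect of the drug and one of the kinase cannot be told apart, and the sources used here do not say whether the 4 samples of a group were separate cultures.

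Binding of TNF to its receptor gathers a complex in which the cellular inhibitors of apoptosis cIAP1 and cIAP2 (BIRC2 and BIRC3) attach ubiquitin chains to the kinase RIPK1, and these chains recruit the kinases that activate the transcription factor NF-kB. A20 (TNFAIP3), held on ubiquitin by its adaptors ABIN1 and ABIN2 (TNIP1 and TNIP2), and the deubiquitinase CYLD edit or remove the chains and limit the signal. When RIPK1 is not held in that complex it can join caspase-8 in a death complex, where cFLIP (CFLAR) restrains the caspase. TNFAIP3, BIRC3, CFLAR, TNFAIP2 and TNIP1 are themselves known NF-kB target genes. LATS2, the induced kinase, belongs to the Hippo pathway and keeps the coactivators YAP and TAZ out of the nucleus.

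The table held 1 pooled FPKM value (fragments scaled by transcript length and library size) per group and locus, so no spread between samples can be given and no test was possible; every difference below compares 2 pooled values and has no replicate check. The depth of each sample is not given. The decimal point of most values of 1 or more was lost, as 98.2% of the 24849 cells of at least 1 carried a mark before their last 3 digits and none had 4 or more decimals, while 17823 of the 17830 cells between 0 and 1 had 4 or more decimals. The digits of such a cell therefore allow up to 3 levels that differ by powers of 10, and each ratio was taken from the levels at which the groups lie closest. All 10 genes had 3 possible levels and at least 1 FPKM in both groups; their levels are given below at the lowest of the 3, with 10 or 100 times both values equally possible, and they cannot be ranked by level. The second-closest placing of any of the 10 genes would need a change of at least 6.49-fold. Of 545 named loci with an intact Untreated value between 0.25 and 0.4 FPKM, 6 (1.10%) lay more than the square root of 10 from it as a ratio in LATS2 OE or at 0. The 89 named loci with both points intact at 1 FPKM or more differed by at most 1.23-fold. A locus with a larger change can keep its point in only 1 group and so leave this set, and the small spread is no check of the placing. By construction, the closest placing gives a wrong ratio, often with the wrong sign, wherever the true change exceeds the square root of 10. For ratios of 1.78-fold or more the next placing becomes a near competitor, and no direction is given for such genes unless no placing within 10-fold has the opposite sign.

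A ratio was called when the pools differed by 5 to 4 or more in either direction (0.32 on the log2 scale), which is the fold meant below. Among the 11917 named loci with at least 1 FPKM in both groups, 1050 (8.81%) passed that fold in either direction: 433 (3.63%) were higher in LATS2 OE, 456 (3.83%) were lower and 161 had no settled direction. The median log2 ratio of these loci was -0.00, with quartiles of -0.07 and 0.07. The check of the induced gene itself could not be made from the digits alone: LATS2 (chr13:21547173-21635722, minus strand) read 2.64 FPKM in Untreated and 5.31 FPKM in LATS2 OE at the lowest level, and its digits allow a 2.01-fold or 20.1-fold higher value as well as a 4.97-fold lower one. Of 10 podocyte markers, 5 were at 1 FPKM or more in both groups (PODXL, SYNPO, CD2AP, ACTN4 and VIM), none of them past the fold, whereas the defining gene NPHS1 (0.00875 and 0.00616 FPKM in Untreated and LATS2 OE) was near 0 and WT1 was at 0.413 and 0.412 FPKM. All 5 endothelial markers were under 1 FPKM in both groups, and of 5 leukocyte markers the lysosomal gene CD68 alone reached 1 FPKM.

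Of the 10 checkpoint genes, 4 (40%) passed the fold, beside 8.81% of all named loci at this level. Higher in LATS2 OE were TNFAIP8, BIRC3 and TNFAIP2, 3 genes beside 3.63% of all loci, and lower was CFLAR, 1 gene beside 3.83%. The other 6 genes, TNIP1, BIRC2, RIPK1, TNIP2, TNFAIP3 and CYLD, lay within the fold, the widest of them at a log2 ratio of 0.17. The median log2 ratio of the 10 genes was 0.12, and 8 ratios were above 0 and 2 below, whereas 48.5% of all named loci had a ratio above 0. Both the genes and the fold were chosen with earlier results of these data known, so 40% beside 8.81% is a description and no test. No gene lay between log2 ratios of 0.17 and 0.35 in size, where the fold falls. At a call of 1.5-fold, 1 gene (TNFAIP8) passed, beside 2.93% of all named loci.

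**Figure D1:**
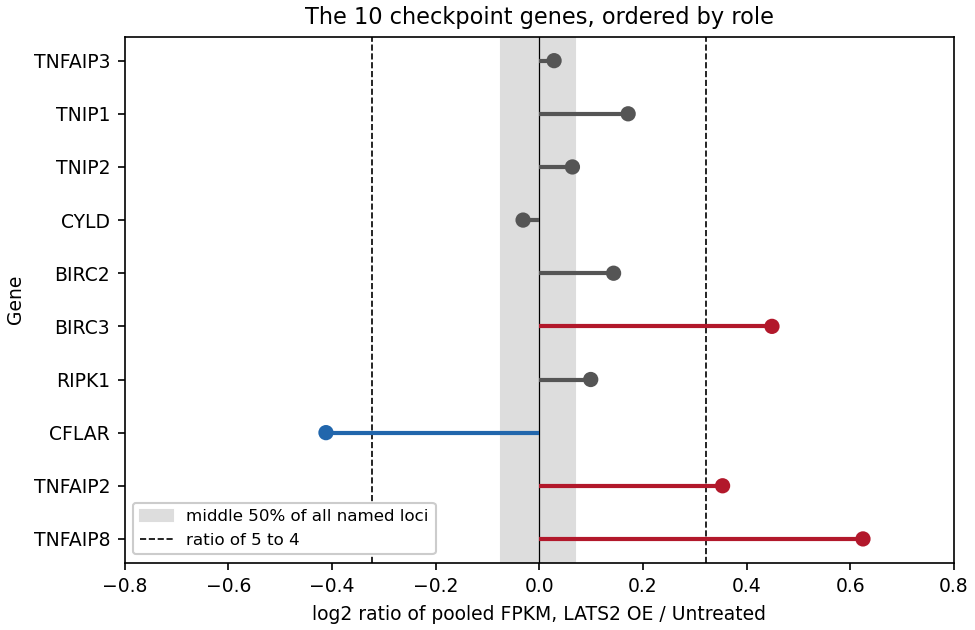
The log2 ratio of pooled FPKM, LATS2 OE over Untreated, is plotted for each of the 10 genes, with 1 point per gene, no error bars because each group has 1 pooled value, dashed lines at a ratio of 5 to 4 and a grey band from -0.07 to 0.07 for the middle 50% of all named loci. TNFAIP8 (0.62), BIRC3 (0.45) and TNFAIP2 (0.35) lie right of the upper line and CFLAR (-0.41) left of the lower one.

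Because several of these genes are known NF-kB targets, the sequence around their transcription starts is shown first. All 10 genes had promoter windows in RefSeq (250 bases before to 50 after a start), 21 windows in all, and each window was found once, letter for letter, in hg19. The 10-base kappaB consensus, the DNA word bound by NF-kB, was searched on both strands and found in 6 windows of 5 genes (BIRC3, TNFAIP3, TNIP1, CYLD and CFLAR), whereas 13.3% of the 27305 genes with a window and 11.3% of all 35116 windows hold a match. Of the 4 genes past the fold, BIRC3 and CFLAR held a match and TNFAIP8 and TNFAIP2 did not; of the 6 others, TNFAIP3, TNIP1 and CYLD held one. A match is a description of letters and no evidence of binding. The stretches with matches are printed below, 5′ to 3′ on the gene's strand, with the kappaB matches in capitals: for BIRC3 all 250 bases before the start (chr11:102187965-102188214), and for the others the matches with 10 bases on either side.
BIRC3, 250 bases before the start: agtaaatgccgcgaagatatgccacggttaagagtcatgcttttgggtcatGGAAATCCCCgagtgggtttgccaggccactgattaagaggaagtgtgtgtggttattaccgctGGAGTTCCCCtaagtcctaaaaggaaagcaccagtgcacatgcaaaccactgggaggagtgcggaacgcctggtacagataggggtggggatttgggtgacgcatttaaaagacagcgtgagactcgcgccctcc
TNFAIP3, chr6:138188319-138188360, plus strand: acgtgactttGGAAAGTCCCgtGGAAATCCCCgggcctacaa
TNIP1, chr5:150460618-150460647, minus strand: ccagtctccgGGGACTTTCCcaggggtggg
CFLAR, chr2:201983332-201983361, plus strand: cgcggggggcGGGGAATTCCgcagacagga
CYLD, chr16:50775798-50775827, plus strand: ttgacagagcGGAAAGTCCCttcggccggc
CYLD, another start, chr16:50776316-50776345, plus strand: cccccccaccGGGGCTTCCCcatcccccga

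The BIRC3 matches began 199 and 135 bases before the start. The 2 TNFAIP3 matches stood close together, from 67 and from 55 bases before the start, and both genes share one matched word, printed in capitals in both stretches as GGAAATCCCC. TNFAIP3, TNIP1 and CYLD share a second word, read as GGAAAGTCCC on the plus strand of TNFAIP3 and CYLD and as its reverse complement GGGACTTTCC in TNIP1. The match at the other CYLD start, GGGGCTTCCC, begins at the start itself and does not lie before it. The binding word of the TEAD factors, through which YAP and TAZ act (GGAATG), was found in 1 gene, RIPK1, at one of its 3 starts, and is held by 16.7% of all genes. The AP-1 word (TGANTCA) was found in 1 gene, CFLAR, at another of its 4 starts, and is held by 9.37% of all genes. No match of these letters in a window says nothing about a factor that binds elsewhere.

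**Figure D2:**
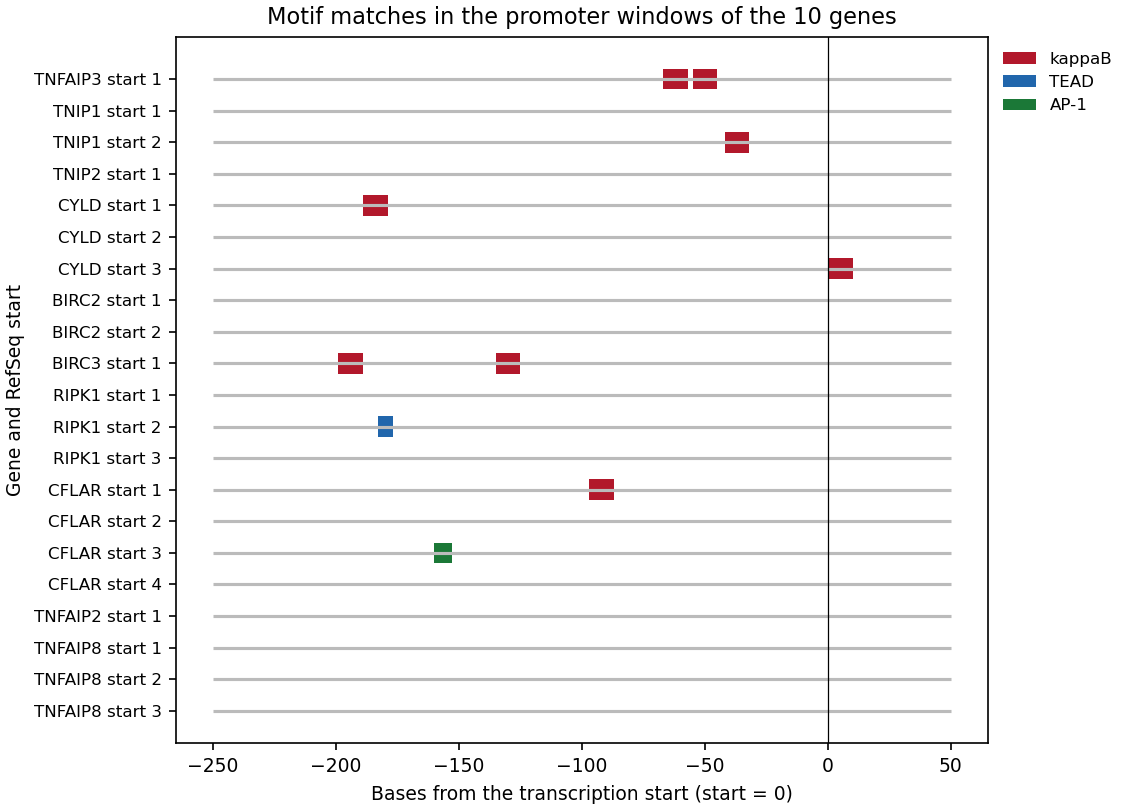
Each grey line is 1 of the 21 RefSeq promoter windows of the 10 genes, from 250 bases before to 50 after the start, and coloured blocks mark matches of the kappaB, TEAD and AP-1 words on either strand. The kappaB matches fall in 6 windows of 5 genes, and the windows of TNFAIP2, TNFAIP8, TNIP2 and BIRC2 hold no match of any of the 3 words.

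A20 and its adaptors ABIN1 and ABIN2 differed little between the groups. TNFAIP3 encodes A20, which removes one kind of ubiquitin chain from RIPK1 and adds another. It read 5.86 FPKM in Untreated and 5.98 FPKM in LATS2 OE at the lowest level, a log2 ratio of 0.03, and 22.8% of all named loci lay closer to an equal value. Its locus in the table (chr6:138144807-138204451, plus strand) begins 43544 bases before the annotated gene, and an antisense locus overlapping it was at 0.0911 FPKM in Untreated and 0.0875 FPKM in LATS2 OE. TNIP1, the adaptor ABIN1 (chr5:150409504-150467221, minus strand), read 4.44 FPKM in Untreated and 5.00 FPKM in LATS2 OE at the lowest level, a log2 ratio of 0.17. TNIP2, the adaptor ABIN2 (chr4:2743387-2758103, minus strand), read 2.31 and 2.41 FPKM, a log2 ratio of 0.06. Of these genes TNIP1 had the widest ratio, wider than that of 78.4% of all named loci, and was still short of the fold. The related adaptor TNIP3 was at 0.958 FPKM in Untreated and at 1.23 FPKM at the lowest level in LATS2 OE, 1.29-fold higher. Its Untreated point was intact, so no placing makes it lower. TNIP3 did not reach 1 FPKM in both groups and was not counted.

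CYLD, the deubiquitinase that removes linear and other chains from the receptor complex, was as even. It lies at chr16:50775834-50835846 on the plus strand, overlapped by the antisense gene CYLD-AS1, and read 7.30 FPKM in Untreated and 7.15 FPKM in LATS2 OE at the lowest level, a log2 ratio of -0.03. Its partner SPATA2, which brings CYLD to the receptor, had a log2 ratio of -0.01, and OTULIN, which cuts linear chains, one of -0.02. OTUD7B, a deubiquitinase of the A20 family, had a log2 ratio of 0.06. Over the list of ubiquitin chain editors, 0 of 14 genes with at least 1 FPKM in both groups passed the fold, with log2 ratios from -0.11 to 0.06 and a median of -0.03, beside 8.81% of all named loci. With 14 genes, a count of 0 cannot be told from that share.

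The 2 cIAP genes, paralogs that lie next to each other on chromosome 11 with 7777 bases between their loci, differed in ratio. BIRC3, which encodes cIAP2 (chr11:102188181-102210135, plus strand), read 4.26 FPKM in Untreated and 5.81 FPKM in LATS2 OE at the lowest level. That is 1.37-fold higher, a log2 ratio of 0.45, and 95.1% of all named loci lay closer to an equal value. BIRC2, which encodes cIAP1 (chr11:102217913-102249401, plus strand), read 3.33 and 3.68 FPKM, a log2 ratio of 0.14 and within the fold. The ratio of BIRC3 was 1.24 times that of BIRC2, a difference that has no replicate check. Only BIRC3 of the pair holds kappaB words in its windows, the 2 shown in capitals above. Whether such words bear on the ratios was not tested. TNFAIP3, TNIP1 and CYLD also hold them and lay within the fold, CFLAR holds one and was lower, and TNFAIP8 and TNFAIP2 were higher without one. In the rest of the IAP family and its antagonists, 0 of 7 genes passed the fold, beside 8.81% of all named loci. So few genes cannot be told from that share. XIAP, the direct caspase inhibitor, had a log2 ratio of 0.00, and the list ran from -0.00 to 0.23 with a median of 0.01.

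RIPK1, the kinase on which the ubiquitin chains are built (chr6:3064064-3115793, plus strand), read 1.60 FPKM in Untreated and 1.72 FPKM in LATS2 OE at the lowest level, a log2 ratio of 0.10, wider than that of 61.7% of all named loci. A locus without a gene name that overlaps RIPK1 was at 0.425 FPKM in Untreated and 0.319 FPKM in LATS2 OE. Among the receptors and adaptors above RIPK1, TRADD had a log2 ratio of -0.08, TRAF2 of -0.03 and FADD of 0.07, all within the fold. TRAF1, an adaptor that binds cIAPs, was the 1 of 9 measured genes of that list past the fold, beside 8.81% of all named loci. The digits of TRAF1 allow a 2.04-fold higher or a 4.91-fold lower value. The settled genes of the list ran from -0.08 to 0.26 around a median of 0.12. RIPK2, a relative of RIPK1 that acts below bacterial sensors, had a log2 ratio of 0.25, short of the fold. RIPK3, the kinase of necroptosis, was listed at 0 in both groups, while its substrate MLKL had a log2 ratio of 0.29, also short of the fold. Of the kinases downstream of RIPK1, 0 of 13 passed the fold, with log2 ratios from -0.16 to 0.11 and a median of -0.03, beside 8.81% of all named loci past it. With 13 genes, a count of 0 cannot be told from that share.

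CFLAR was the 1 checkpoint gene lower in LATS2 OE. It encodes cFLIP, the catalytically inactive relative of caspase-8 that blocks death receptor signalling, and lies at chr2:201980877-202037411 on the plus strand. The gene read 3.85 FPKM in Untreated and 2.89 FPKM in LATS2 OE at the lowest level, 1.33-fold lower and a log2 ratio of -0.41, with 94.3% of all named loci closer to an equal value. The antisense locus CFLAR-AS1, which lies inside it, had intact values of 0.519 FPKM in Untreated and 0.300 FPKM in LATS2 OE and was thus 1.73-fold lower. Since the reads carry no strand, reads from bases that both CFLAR and its antisense partner cover cannot be assigned to either by strand. The caspase genes that follow on the same chromosome did not share the ratio: CASP10, 10209 bases away, had a log2 ratio of 0.18, and CASP8 beyond it, the caspase that cFLIP restrains, one of 0.00.

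Around CFLAR, 2 of 11 measured genes of the death complex and necroptosis list passed the fold, both higher in LATS2 OE, beside 3.63% of all named loci. TNFSF10, the death ligand TRAIL, was 1.66-fold higher at a log2 ratio of 0.74, with 1.01 FPKM in Untreated and 1.68 FPKM in LATS2 OE at the lowest level. The digits of TNFSF10 would also allow a 6.01-fold lower value. The death receptor FAS was higher with a log2 ratio of 0.32, barely past the fold. The list's median log2 ratio was 0.18, and its lowest was -0.32 for the TRAIL receptor TNFRSF10A, just short of the fold.

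TNFAIP8 and TNFAIP2 are TNF-induced genes that do not act on ubiquitin chains. TNFAIP8 encodes a lipid-binding protein known for opposing apoptosis, and it had the widest ratio of the 10 genes: it read 1.39 FPKM in Untreated and 2.15 FPKM in LATS2 OE at the lowest level, 1.54-fold higher and a log2 ratio of 0.62. Of all named loci, 97.4% lay closer to an equal value. The locus, chr5:118604387-118730299 on the plus strand, has 3 RefSeq starts, whose share in the value cannot be read from 1 value per locus. TNFAIP2, which encodes a protein related to the exocyst and linked to cell protrusions (chr14:103589464-103603778, plus strand), read 2.21 and 2.83 FPKM, 1.28-fold higher with a log2 ratio of 0.35 and 92.5% of loci closer to an equal value.

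The measured relatives of TNFAIP8 and TNFAIP2 by protein family all lay within the fold. TNFAIP8L1 had a log2 ratio of 0.14, TNFAIP8L2 of 0.09, EXOC3L1 of 0.24 and EXOC3 of -0.02. The loci of TNFAIP8L2 and EXOC3L1 also carry other gene names. TNFAIP8L3 was far below 1 FPKM in both groups, at 0.00241 and 0.0227 FPKM. In the list of relatives of TNFAIP2 and TNFAIP8, 1 of 5 measured genes passed the fold, beside 8.81% of all named loci. It was TNFAIP1, which shares the TNF-induced name but not the protein family, 1.26-fold lower with a log2 ratio of -0.33. TNFAIP1 thus lay on the other side of 0 from TNFAIP2 and TNFAIP8.

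**Figure D3:**
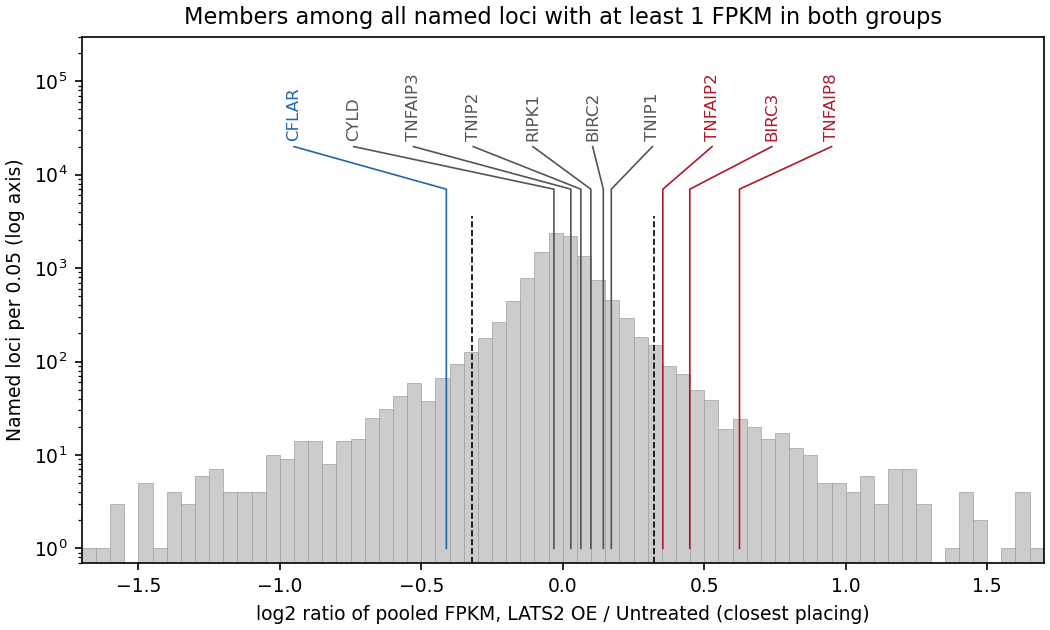
Grey bars count the 11917 named loci with at least 1 FPKM in both groups by log2 ratio of pooled FPKM (closest placing), in steps of 0.05 on a log axis, with dashed lines at a ratio of 5 to 4. Coloured lines mark the 10 genes: 6 fall within the bulk of the loci between the dashed lines, 3 on the higher side and CFLAR on the lower side.

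The wider NF-kB programme gave a mixed picture. Among the subunits and inhibitors of NF-kB, 1 of 10 measured genes passed the fold, beside 8.81% of all named loci. It was BCL3, a nuclear cofactor of NF-kB, whose digits allow a 3.07-fold higher or a 3.25-fold lower value. The settled members of that list ran from -0.09 to 0.32 around a median of 0.06, the highest being NFKBIA, the inhibitor that NF-kB itself induces, 1.24-fold higher and short of the fold. Of 27 measured textbook NF-kB target genes (36 names were listed, 35 found), 13 passed the fold beside 8.81% of all named loci. BCL3 and TRAF1, counted above in other lists, are counted again among them. Of the 13, 7 had no settled direction, 5 were higher beside 3.63% of all named loci and 1 was lower beside 3.83%. The 5 were the chemokines CXCL10 (1.43-fold) and CCL2 (1.26-fold), the protease PLAU (1.41-fold), the transcription factor IRF1 (1.33-fold) and the surface protein CD83 (1.29-fold), and the lower one was the chemokine CXCL8 (a log2 ratio of -0.59); these 6 were named after their values were seen. The 4 widest of the list at the closest placing, an order that another placing would change, were all unsettled: BCL3, the receptor TNFRSF9 (2.34-fold higher or 4.27-fold lower), the growth factor CSF2 (2.12-fold higher or 4.71-fold lower) and the cytokine IL6 (2.12-fold lower or 4.72-fold higher, with a second locus at the same place). TNF, the ligand itself, had a log2 ratio of 0.26 and its receptor TNFRSF1A one of 0.25, both within the fold. Textbook NF-kB targets under 1 FPKM in a group were not counted. Of these, PTGS2 (1.44-fold), ICOSLG (1.75-fold), BCL2A1 (1.57-fold), IL1A (1.31-fold), IL1B (2.71-fold) and MMP9 (1.72-fold) were higher in LATS2 OE at the closest placing. CCL20 and LTB lay within the fold. Where both groups were under 1 FPKM, 54.7% of loci passed the fold.

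The targets of YAP and TAZ, the coactivators that LATS2 holds back, are given for comparison. Of 20 measured genes of that list, which counts LATS2 itself, 16 passed the fold beside 8.81% of all named loci, 4 of them lower beside 3.83%, none with a settled higher value and 12 with no settled direction. CYR61, a secreted matrix protein and standard YAP target, was 2.55-fold lower with a settled direction, having kept its point in Untreated. The other 3 widest at the closest placing, TGFB2 (3.16-fold higher or 3.17-fold lower), AMOTL2 (3.06-fold higher or 3.27-fold lower) and F3 (2.53-fold lower or 3.96-fold higher), are given no direction here, since the digits alone do not settle it and another placing would change their order.

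**Figure D4:**
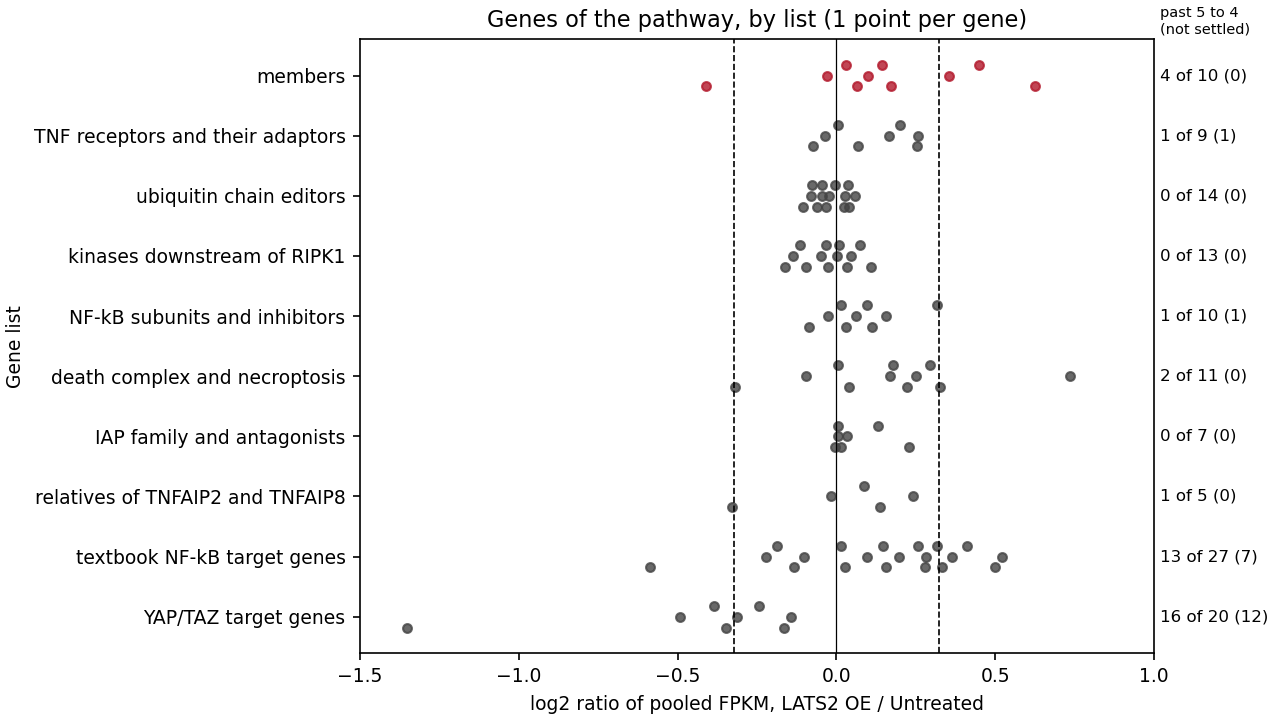
Each point is 1 gene with at least 1 FPKM in both groups and a settled direction, by list, at its log2 ratio of pooled FPKM; dashed lines mark a ratio of 5 to 4, and the numbers at the right give the genes past the fold of those measured, with those of no settled direction, which are not plotted, in brackets. The ubiquitin chain editors (0 of 14) span -0.11 to 0.06, the kinases downstream of RIPK1 (0 of 13) -0.16 to 0.11 and the 10 checkpoint genes (4 of 10) -0.41 to 0.62. Of all named loci at this level, 8.81% passed the fold, a share from which a count of 0 in lists this short cannot be told.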

How the data were processed

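RNA-seq of 8 samples (4 Untreated, 4 LATS2 OE) was used. As the submitters' processing notes and the study's methods name, the authors used bcl2fastq, FastQC, Trimmomatic 0.33, TopHat and Cufflinks with hg19 and deposited 1 pooled FPKM value per group and locus; their versions and the annotation file are not given in sources used here, Trimmomatic aside. The deposited table also holds the authors' own log2 fold changes, test statistics, p-values and calls of significance, which were not used, also not to place decimal points. Lost decimal points were placed from the FPKM digits alone, with Python 3.11.15 and pandas 2.3.3, at the levels where the groups lie closest. The rule that no direction is read at 1.78-fold or more was set after the values were seen and with the study's own findings on YAP targets known. Loci counted as background had a gene name and at least 1 FPKM in both groups. Locus starts, which count from 0 in the table, were raised by 1. For genes with several loci, those on alternative haplotypes were left out and a locus with at least 1 FPKM in both groups was preferred. Genes were annotated with GENCODE 44 lifted to GRCh37, and promoter windows came from RefSeq (table build GRCh38.p14). Of 128 listed genes outside the markers, 126 were found; the other 2 names are older symbols of genes that were. Genes named are the 10 members, LATS2, their paralogs and partners, and up to 4 genes with the widest ratio at the closest placing past the fold in each list. The further NF-kB targets CXCL10, CCL2, PLAU, IRF1, CD83, CXCL8, PTGS2, ICOSLG, BCL2A1, IL1A, IL1B, MMP9, CCL20 and LTB fall outside this rule. So do NFKBIA, TNF, TNFRSF1A, TNFRSF10A, TNFAIP8L2, EXOC3L1 and EXOC3. These further genes were named after their values were seen. Members, lists and the called fold of 5 to 4 were chosen with earlier results of these data known. Some listed genes are not reported here. The alternatives tried were centring, calls at 1.2-fold and 1.5-fold, pseudocounts, level filters and another placing of the point.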

Additional observations from a re-analysis of the deposited data

How the results depend on the processing

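No paired analysis was possible because the deposited table holds 1 pooled value per group, and for the same reason no replicate could be left out in turn. Over the 5 settings planned for the 10 genes, 45 of 50 values stayed on their side of the fold. Most could not have moved, since centring hardly shifts a ratio and the 6 genes within the fold lay far from it. The 5 that changed were all genes past the fold, under the 1.5-fold call or the pseudocount of 1 FPKM. Changing the call or adding a pseudocount cannot turn a sign, so these settings say nothing of direction. Calling at 1.5-fold left 1 gene (TNFAIP8) past the fold, beside 2.93% of all named loci, with 1 gene of the death complex list, 0 of the relatives of TNFAIP2 and TNFAIP8 and 8 of the textbook NF-kB targets. A pseudocount of 1 FPKM at the lowest level left 2 genes past the fold, TNFAIP8 and BIRC3, beside 5.44% of loci; at a higher level the pseudocount would act less. The background share itself was 25.1% with no filter on level and 54.7% where both groups were below 1 FPKM. The second-closest placing of the point, an alternative chosen after seeing the data, would put all 10 genes past the fold with the opposite sign: log2 ratios of -2.97 for TNFAIP2, -3.29 for TNFAIP3, -2.70 for TNFAIP8, -3.15 for TNIP1, -3.26 for TNIP2, -3.18 for BIRC2, -2.87 for BIRC3, 3.29 for CYLD, 2.91 for CFLAR and -3.22 for RIPK1. The depth of each sample and the spread between samples are not given.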
